A study of Mus musculus with 7 samples.

Results

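The ATP-binding cassette (ABC) transporters described here are Abcg2, Abcb1a, Abcb1b, Abcc4 and Abcc9, followed in mouse mammary gland cells sorted by how strongly they keep the Hoechst dye. They were chosen by name, as every probe set on the authors' deposited list of 1632 differing probe sets whose gene number or symbol belongs to these genes. That gave 6 probe sets, of 45101 on the array, with 2 for Abcb1a and 1 for each of the other 4 genes. The study hybridised amplified RNA to Affymetrix mouse arrays: 3 arrays of side population cells (SP, the cells in the gate of low dye fluorescence), 3 arrays of non-side population cells (NSP, the gate of high fluorescence) and 1 array of a commercial universal mouse reference RNA. The design text speaks of 4 replicates and of 2 arrays removed as outliers, which were not analysed here. Strain, age and number of mice are not given in the sources used here. Nothing says that the 3 sorts used different animals, and the spread on which each p-value rests may therefore be technical. All sorted-cell RNA went through 2 rounds of in vitro amplification, and each gate holds whatever mammary cell types fall into it.

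ABC transporters are membrane proteins that bind and hydrolyse ATP, and most of them use it to carry a substrate across the membrane. The side population is defined by this activity, since cells with strong efflux pumps lose the Hoechst dye, and verapamil, a blocker of P-glycoprotein and other pumps, makes the population disappear from the plot. Abcg2 (breast cancer resistance protein) is the pump best known for exporting the dye, and in the lactating mammary gland it moves substrates such as riboflavin into milk. Abcb1a and Abcb1b are the paired mouse counterparts of the human P-glycoprotein gene ABCB1, and Abcb1a is the main form in mouse brain capillary endothelium. Abcc4 (Mrp4) exports organic anions and cyclic nucleotides. Abcc9 (Sur2) belongs to the same family by sequence but is a regulatory subunit of ATP-sensitive potassium channels and is not known as a drug pump, so the shared name of dye efflux fits its family and not its known role. In mouse brain it marks pericytes.

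The genes lie on 3 chromosomes of the GRCm38.p6 assembly. Abcb1a (chromosome 5, 8567091 to 8748575) and Abcb1b (8798147 to 8866314) are neighbours, 49571 bases apart with no gene annotated wholly between them. Abcg2 (58584491 to 58692451) and Abcc9 (142587862 to 142702766) are on chromosome 6, and Abcc4 (118482692 to 118707856) is on chromosome 14. RefSeq promoter windows of this build, from 250 bases before to 50 after a start, matched all 5 genes, with 3 starts for Abcg2, 2 for Abcc4 and 1 for each of the others. The windows of the neighbouring Abcb1 genes are shown because both had higher signals in SP than in NSP cells while they stood differently against the reference RNA, and the most downstream Abcg2 start is shown because Abcg2 is the dye exporter. Capitals mark the motifs searched on both strands.
Abcb1a, chr5:8566841-8567140, plus strand: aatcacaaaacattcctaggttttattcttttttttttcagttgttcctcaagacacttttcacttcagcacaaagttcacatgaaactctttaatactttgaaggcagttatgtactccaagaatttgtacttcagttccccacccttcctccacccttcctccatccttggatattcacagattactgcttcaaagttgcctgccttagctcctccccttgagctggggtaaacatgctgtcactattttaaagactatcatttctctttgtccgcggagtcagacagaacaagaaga
Abcb1b, chr5:8797897-8798196, plus strand: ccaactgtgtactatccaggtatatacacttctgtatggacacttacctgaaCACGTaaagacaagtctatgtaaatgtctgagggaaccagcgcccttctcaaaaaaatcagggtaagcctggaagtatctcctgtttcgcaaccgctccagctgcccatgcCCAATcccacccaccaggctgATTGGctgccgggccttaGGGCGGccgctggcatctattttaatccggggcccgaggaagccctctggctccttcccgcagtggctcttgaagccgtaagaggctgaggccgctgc
Abcg2, chr6:58640296-58640595, plus strand: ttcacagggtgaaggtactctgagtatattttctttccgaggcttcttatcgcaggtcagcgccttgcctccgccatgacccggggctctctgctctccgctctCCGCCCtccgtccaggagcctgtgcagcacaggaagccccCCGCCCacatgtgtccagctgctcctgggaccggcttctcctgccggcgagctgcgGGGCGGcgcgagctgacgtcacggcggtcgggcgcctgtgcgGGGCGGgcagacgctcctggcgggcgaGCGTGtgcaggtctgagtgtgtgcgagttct

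The motifs were GCGTG (core of the dioxin response element), ACGTG (core of the hypoxia response element), GGGCGG (GC box), CCAAT and TATAAA, each with its reverse complement. They occur in 32.4%, 19.6%, 35.7%, 37.4% and 13.6% of all 32851 promoter windows of the table. The Abcb1a window held none of these letters, 2 CG dinucleotides and 40.3% G and C. The Abcb1b window held 1 GC box at position -48 from the start, CCAAT at -87, its reverse complement at -66, the reverse complement of ACGTG at -198 and 12 CG dinucleotides, with 55.0% G and C. The Abcg2 window held 4 GC boxes, 1 GCGTG at position 19, and 28 CG dinucleotides, whereas the other Abcg2 starts held 10 and 3. The median window of the table held 7 (quartiles 3 and 20). The upstream Abcc4 window was the richest of the 8, with 41, and the Abcc9 window held 16. None of the motifs marked in the 3 windows overlap. These are matches of letters, not measured binding.

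Array medians ran from 79.3 to 97.2 over the 7 arrays. A signal here is a linear intensity with no unit, comparable for 1 probe set between arrays and not between probe sets. Log2 signals correlated at 0.950 to 0.954 among SP arrays, 0.945 to 0.956 among NSP arrays and 0.893 to 0.903 between sorted cells and the reference, across probe sets, which are not independent. Signals under 17, the 20th percentile, were set to it. The comparison of SP with NSP cells was fitted with limma on log2 signals with the sample number as a block (3 pairs), over 38115 probe sets. The authors had put these transporters on their list for the same contrast, so the values below describe that contrast and are no independent test of it.

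Each of the 6 transporter probe sets was higher in SP than in NSP cells in 3 of 3 pairs, by 1.40-fold to 3.23-fold, with a median log2 difference of 1.09. The median over all 38115 probe sets was -0.0080, and over the 1632 listed ones it was -0.12, with 739 higher in SP. None of the 6 passed a Benjamini-Hochberg adjusted p of 0.05 in limma, where 0% of all probe sets passed in either direction (3758 had an unadjusted p under 0.05). At an unadjusted p under 0.05 all 6 were higher, against 4.77% of all probe sets and 17.6% of those listed. When the variance was allowed to follow the intensity (limma with an intensity trend and the block), all 6 passed in the upward direction, against 1.16% of all probe sets and 14.5% of those listed. With the trend and no block 3 passed upward, against 0.352% of all probe sets and 5.94% of those listed, and with neither 0 passed, against 0.00262% of all. In a sorted population, a higher share of cells that express a gene and more RNA per cell cannot be told apart.

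**Figure D1:**
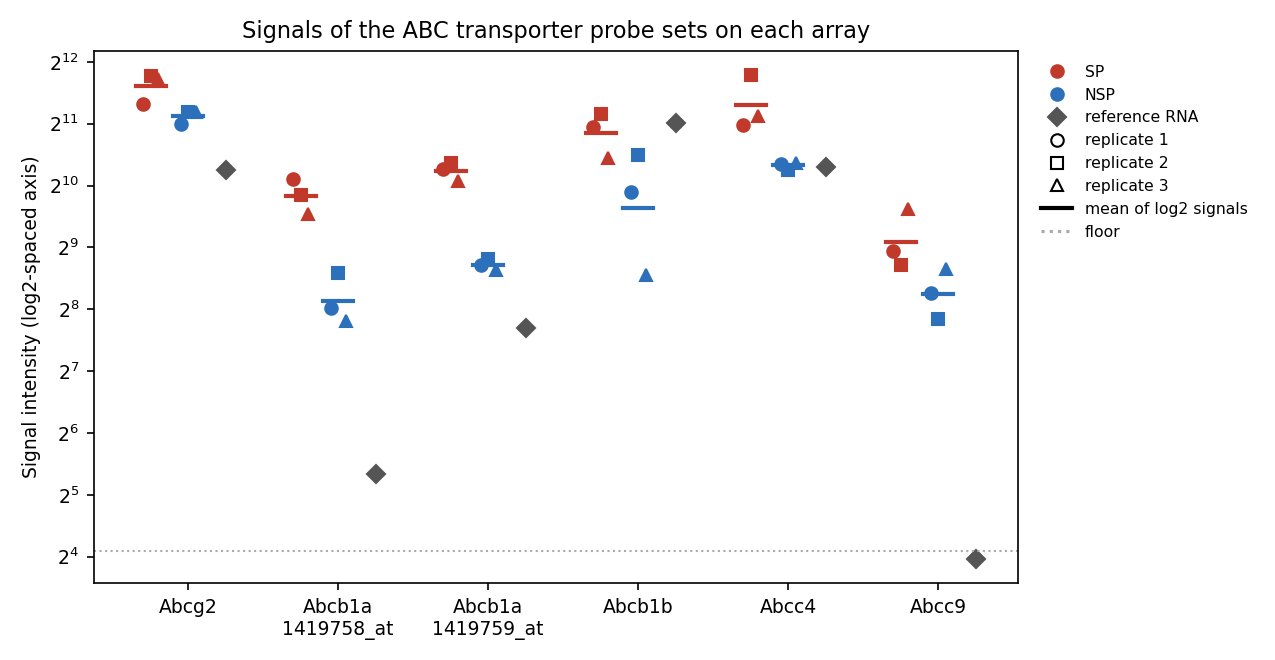
Signal intensity (vertical axis, log2-spaced, no unit) of the 6 transporter probe sets on each array. Red marks SP, blue NSP and grey the reference RNA, the shape gives the replicate number, bars are means of log2 signals (n = 3), and the dotted line is the floor of 17. SP points lie above NSP points for every probe set but that of Abcb1b, and the reference lies below both sorted groups for Abcg2, Abcb1a and Abcc9.

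Abcg2 (probe set 1422906_at), the dye exporter, had signals of 2554, 3511 and 3378 on the SP arrays, against 2050, 2320 and 2337 on the NSP arrays and 1216 on the reference array. The SP arrays all lay above the NSP arrays, but the lowest SP signal exceeded the highest NSP signal by 1.09-fold. The log2 difference was 0.48 ± 0.16 (moderated SE, n = 3 pairs, 1.40-fold, limma adjusted p = 0.500), and within pairs it was 0.32, 0.60 and 0.53. With the trend and the block the adjusted p was 0.0183. Replicate 1 was the lowest in both populations. Abcg2 had the smallest difference of the 6, and among the listed probe sets higher in SP it stood at the 55.0th percentile.

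Abcb1a, a P-glycoprotein gene, was measured by 2 probe sets. With 1419759_at its signals were 1231, 1311 and 1082 in SP cells, against 418, 447 and 397 in NSP cells and 207 in the reference. With 1419758_at they were 1100, 922 and 746 in SP cells, against 261, 384 and 224 in NSP cells and 40.3 in the reference. Both probe sets put every SP array well above every NSP array, with gaps of 2.42-fold and 1.95-fold between the nearest arrays. The log2 differences were 1.52 ± 0.15 (limma adjusted p = 0.376) and 1.69 ± 0.23 (limma adjusted p = 0.376), which differ by less than the larger standard error. They differed in how evenly the pairs moved. The pair differences of 1419759_at were 1.56, 1.55 and 1.45 (SD 0.062), and those of 1419758_at were 2.07, 1.26 and 1.74 (SD 0.41). With the trend and the block the adjusted p-values were 0.000186 and 0.000839.

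Abcb1b, the neighbouring P-glycoprotein gene (1418872_at), had signals of 1966, 2279 and 1392 in SP cells, against 947, 1434 and 377 in NSP cells and 2062 in the reference. It is the 1 transporter whose groups overlapped, since NSP replicate 2 lay above SP replicate 3. Replicate 2 was the highest and replicate 3 the lowest in both populations. The log2 difference was 1.202 ± 0.30 (2.30-fold, limma adjusted p = 0.435) and its pair values were the most spread of the 6, at 1.05, 0.67 and 1.88. Without the block its standard error was 0.52. Abcb1a and Abcb1b are close paralogs, and how far their probes cross-react is not given in the sources used here. With the trend and the block the adjusted p was 0.00688.

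Abcc4 (1443870_at), the organic anion exporter, had signals of 2018, 3534 and 2235 in SP cells, against 1307, 1222 and 1323 in NSP cells and 1261 in the reference. The NSP arrays and the reference array were close together, and SP replicate 2 was well above the other SP arrays. The log2 difference was 0.97 ± 0.26 (1.96-fold, limma adjusted p = 0.445), with pair values of 0.63, 1.53 and 0.76. With the trend and the block the adjusted p was 0.00730. The probe set was named by its gene number, and its description in the authors' deposited table names no symbol.

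Abcc9, the potassium channel subunit, was measured by a probe set (1435752_s_at) of the kind whose probes several transcripts share. It had signals of 493, 420 and 785 in SP cells, against 306, 228 and 402 in NSP cells and 15.6 in the reference. The groups did not overlap, although SP replicate 2 exceeded NSP replicate 3 by 1.05-fold only. Replicate 3 was the highest and replicate 2 the lowest in both populations. Its pair differences were close together, at 0.69, 0.88 and 0.97, which gave 0.85 ± 0.16 (1.80-fold, limma adjusted p = 0.389) with the block, and a standard error of 0.33 without it. With the trend and the block the adjusted p was 0.0266. In all, 5 of the 6 probe sets had groups that did not overlap, with SP higher, as had 6.74% of all probe sets and 22.4% of those listed.

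The authors' second processing of the same arrays, with dChip, gave like directions and sizes. In the authors' deposited table the differences of the dChip means, whose log base is not stated and was read as 2, were 0.52 for Abcg2, 1.66 and 1.64 for the probe sets 1419758_at and 1419759_at of Abcb1a, 0.93 for Abcb1b, 0.91 for Abcc4 and 1.16 for Abcc9. All 6 were called present on 100% of the arrays of both populations in the authors' deposited table. Both Abcb1a probe sets and Abcc9 were also on the authors' strictest list of 90 (paired p at most 0.01, difference at least 0.7), with paired p-values in the authors' deposited table of 0.000362, 0.000729 and 0.00976. Abcg2 had a paired p of 0.00765 in the authors' deposited table but a difference below 0.7, and Abcb1b (0.0246) and Abcc4 (0.0377) missed the p of 0.01 there. Abcc4 was thus the nearest of the 6 to the threshold of 0.05 that put probe sets on the list. These paired p-values are unadjusted. The authors' own median estimates of false discoveries, from permutations, ran from 0 probe sets for the strictest list to 153 for the list of 1632. Their upper estimate, from a high percentile of the same permutations, let every probe set of each list be false. That held for the strictest list too, so a place on it is not shown to be secure.

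The processings differed most in single pairs for Abcb1b. Its dChip values in the authors' deposited table were 9.56, 9.89 and 9.17 on the SP arrays, against 8.54, 8.75 and 8.52 on the NSP arrays, so that the groups no longer overlapped. The NSP arrays spanned 0.23 on the dChip scale, against 1.93 for log2 signals. Pair 3 had the smallest dChip difference, 0.65, and the largest signal difference, 1.88. For Abcc9 the dChip values in the authors' deposited table kept the order of the replicates, with 9.95, 9.46 and 10.48 in SP cells, against 8.95, 8.07 and 9.39 in NSP cells, and again SP replicate 2 lay just above NSP replicate 3. For 1419758_at of Abcb1a the pair differences narrowed to 1.71, 1.65 and 1.61. Abcc4 kept its largest difference in pair 2 (1.27).

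**Figure D2:**
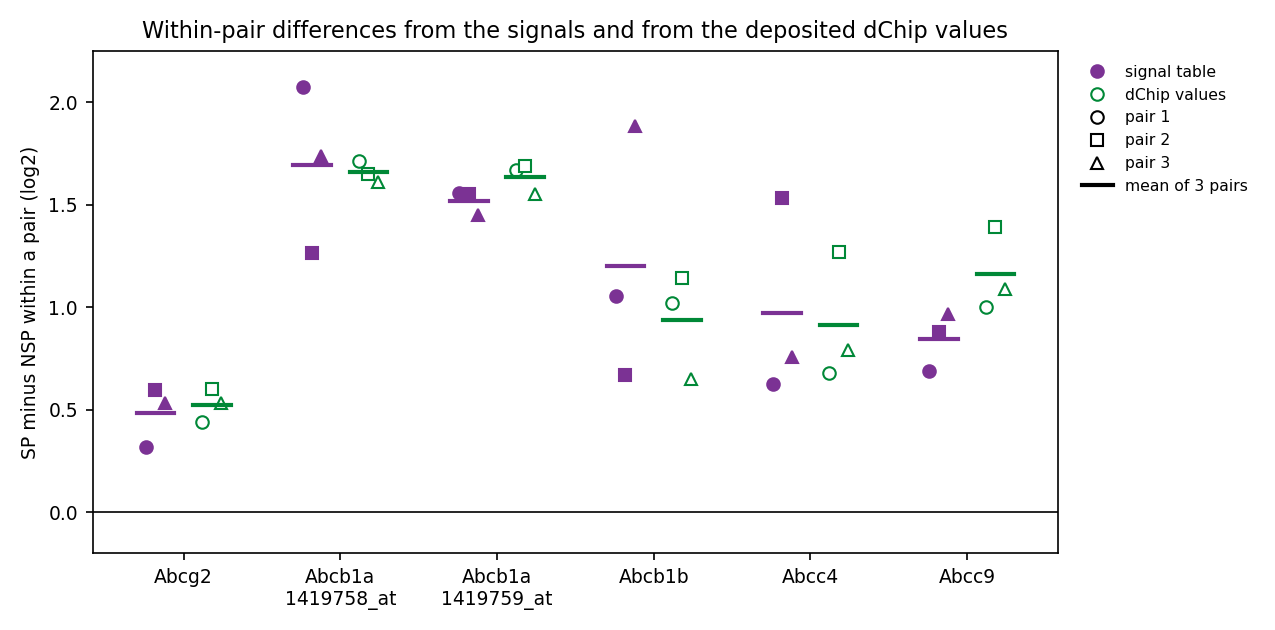
Log2 difference of SP minus NSP within each of the 3 pairs (vertical axis), from the signal table (filled) and from the authors' deposited dChip values (open); bars are means of 3 pairs. All points are above 0, and pair 3 of Abcb1b stands at 1.88 in signals and 0.65 in dChip values.

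The reference RNA, a commercial pool from mouse cell lines, gives a common level, in 1 array and so without a replicate check or a test. The rule that chose the transporters did not use this contrast, but it drew on a list made from the same SP and NSP arrays. The authors' calls had all 6 present on every sorted array. The shares of all probe sets below are thus no like comparison, and those of the listed ones are not given here. The counts describe the 6 and test nothing. A log2 difference above 1 from the reference was counted. It was met by 4 of the 6 probe sets in SP cells, against 13.3% of all probe sets, and by 3 of the 6 in NSP cells, against 13.1%. The 3 probe sets of Abcb1a and Abcc9 met it in both populations. The signal of Abcc9 in the reference, 15.6, lay under the floor, so it was at least 32.1-fold higher in SP and at least 17.9-fold higher in NSP cells. These bounds depend on the floor: at the 40th percentile (56.6) the log2 differences were 3.27 in SP and 2.42 in NSP cells, against 5.00 and 4.16, and in SP cells Abcc9 then stood below Abcb1a (1419758_at, 4.01) and not above it.

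The Abcb1a probe sets were both above the reference but by unequal amounts. For 1419758_at the log2 difference was 4.50 in SP and 2.81 in NSP cells, and for 1419759_at it was 2.54 and 1.02. The pair of probe sets thus disagreed on the distance from the reference RNA. The reference signal of 1419758_at, 40.3, was itself low, and with the floor at the 40th percentile its differences were 4.01 in SP and 2.32 in NSP cells. Abcg2 was 1.36 above the reference in SP and 0.88 in NSP cells, and Abcc4 1.00 in SP (0.9969, just short of 1) and 0.025 in NSP cells. Without SP replicate 2 the value for Abcc4 in SP cells was 0.75. Abcb1b was the exception. It was 0.16 below the reference in SP cells (log2 difference -0.16) and further below it in NSP cells (-1.37), where the individual arrays were wide apart. Without SP replicate 3 the first value was 0.038, above 0, and without NSP replicate 3 the second was -0.82. Among all 38115 probe sets the SP differences from the reference stood at the 99.7th and 98.0th percentiles for Abcb1a, the 91.9th for Abcg2, the 86.7th for Abcc4 and the 43.6th for Abcb1b. Abcc9 has a bound and no exact rank.

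**Figure D3:**
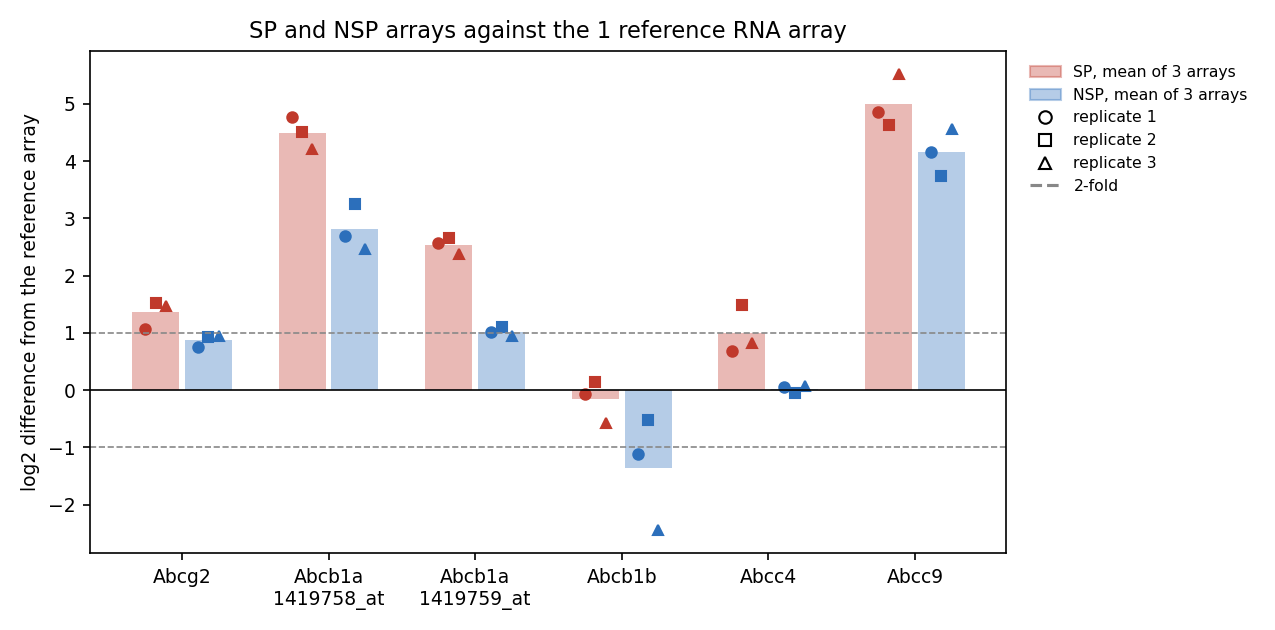
Log2 difference of each SP and NSP array from the 1 reference RNA array (vertical axis); columns are means of 3 arrays and points are arrays, with dashed lines at 2-fold. Abcc9 rests on the floor in the reference, so its columns (5.00 and 4.16) are lower bounds, and Abcb1b alone has both means below 0 (-0.16 and -1.37).

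The transporters did not share 1 profile over the 7 arrays. As a description, with arrays that include the pairs and 1 distant reference, log2 signals of Abcg2 correlated at 0.904 with Abcc9 and 0.895 with Abcb1a (1419759_at), and those of Abcb1a at 0.863 with Abcc4. Abcb1b correlated at 0.022 with Abcg2, 0.334 with its neighbour Abcb1a and -0.265 with Abcc9. The NSP arrays of Abcb1b spanned 1.93 in log2 signals but 0.23 in dChip values, on which correlations were not computed. Among the 1311 genes that the authors' list names, all of which differ between SP and NSP by that choice, those most like each transporter were sought. For Abcb1a they were Cd93, a surface lectin of endothelial and myeloid cells (r = 0.993), Hspa8, a constitutive chaperone (0.985), Calcrl, the receptor for calcitonin gene-related peptide and adrenomedullin (0.979), and Tmem88 (0.975). Cd93 had signals of 1226, 1177 and 1019 in SP cells, against 362, 386 and 263 in NSP cells and 120 in the reference.

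For Abcg2 the closest were Smoc2, a matricellular protein (0.991), Eng, the endothelial co-receptor endoglin (0.990), Hes1, a target of Notch (0.983), and Sema6d, a semaphorin (0.979). Hes1 had signals of 1991, 3112 and 3299 in SP cells, against 1496, 1954 and 2287 in NSP cells and 746 in the reference. For Abcc9 they were Ch25h, which makes 25-hydroxycholesterol (0.994), Mtpn (0.993), Col4a1, a chain of basement membrane collagen (0.992), and Dact1 (0.992). For Abcc4 they were Mast4 (0.971), Tmem198b (0.964), Stard13 (0.961) and Ereg, the growth factor epiregulin (0.942). For Abcb1b, where the reference is high, they were Gxylt2 (0.980), Hoxa5 (0.962), Gart, an enzyme of purine synthesis (0.961), and Limd2 (0.959).

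Of the 53 genes on a list of the mouse ABC family, these 5 are all that could be named here, since names came only from the authors' list. All 5 were higher in SP cells. Of 38 organic anion and cation carriers, the other large group of drug transporters, 4 were named, with 1 higher and 3 lower. None passed limma after adjustment with the block, and with the trend 1 passed upward, against 1.16% of all and 14.5% of the listed probe sets, and 1 downward, against 1.31% and 13.4%. Slco4a1, a carrier of thyroid hormone and other anions, had signals of 870, 1385 and 852 in SP cells, against 350, 256 and 217 in NSP cells. It differed by 1.91 ± 0.28 (limma adjusted p = 0.376, and 0.000842 with the trend and the block). Slco2a1, the prostaglandin carrier, had 2850, 3903 and 3974 in SP cells, against 5590, 7353 and 6268 in NSP cells. It differed by -0.85 ± 0.16 (limma adjusted p = 0.391, and 0.000599 with the trend and the block). Slc22a23 differed by -0.99 ± 0.31 and Slco3a1 by -0.25 ± 0.20.

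A list of 38 regulators and partners of efflux genes had 2 named members, both lower in SP cells. Mvp, the major vault protein, differed by -0.79 ± 0.21 (limma adjusted p = 0.447), and Ctnnb1, the Wnt effector beta-catenin, by -0.24 ± 0.18 (limma adjusted p = 0.698). None of the 7 genes on the list of channel partners of sulfonylurea receptors could be named, so no pore subunit for Abcc9 was analysed here.

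Marker genes of several cell types differed between the populations as well, and the named ones, too, were on the authors' list by that difference. Of 25 endothelial markers 17 were named, and all 17 were higher in SP cells (median 1.45). Of these, 0 passed adjustment in limma with the block and 15 passed with the trend added, where 1.16% of all and 14.5% of the listed probe sets passed upward. Their summed signals were 17956 to 21834 on SP arrays against 5880 to 6368 on NSP arrays. None of the 17 was at the floor on all SP arrays. Of 16 pericyte and smooth muscle markers 2 were named, with sums of 409 to 448 in SP and 468 to 607 in NSP cells. Cnn1, the smooth muscle calponin, which is also on the basal list, differed by -0.86 ± 0.21, with signals of 244, 240 and 184 in SP cells against 335, 483 and 396 in NSP cells. Rgs5, a pericyte gene, differed by 0.45 ± 0.18, with signals of 171, 208 and 225 in SP cells against 133, 125 and 190 in NSP cells. Of 10 fibroblast markers 3 were named, with sums of 16005 to 18323 in SP and 8174 to 10871 in NSP cells. Most of these sums was Dcn, with signals of 12354, 15138 and 15356 in SP cells against 7616, 6111 and 7621 in NSP cells. The sums therefore say little about the other named markers. Pdgfra differed by 0.23 ± 0.15, and Col1a2, with far lower signals, by 0.82 ± 0.20. The sums of 5 luminal markers, of 18 listed, were 9538 to 17175 in SP and 29874 to 35394 in NSP cells, and those of 9 basal markers, of 15 listed, 2331 to 2868 and 6223 to 7987.

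Of 14 leukocyte markers 3 were named, 1 higher and 2 lower in SP cells. Lcp1 differed by 0.014 ± 0.57, and most of the sum on NSP arrays was Laptm5, a lysosomal membrane protein (169, 21.7 and 61.3 in SP cells against 4004, 1687 and 909 in NSP cells). The sums were 164 to 307 in SP and 1137 to 4797 in NSP cells, and those of 2 macrophage markers, of 12, were 317 to 452 and 2310 to 6378. The part of these cell types in the transporter signals was not tested. For control transcripts the signal of the 3' probe set over that of the 5' one, which grows when copies are short, was on the log2 scale higher in SP cells in 3 of 3 pairs, at 3.27 to 4.16 in SP and 2.38 to 3.92 in NSP cells for Actb. For Gapdh it was 3.04 to 4.35 and 2.14 to 3.35. Its part was not tested either.

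**Figure D4:**
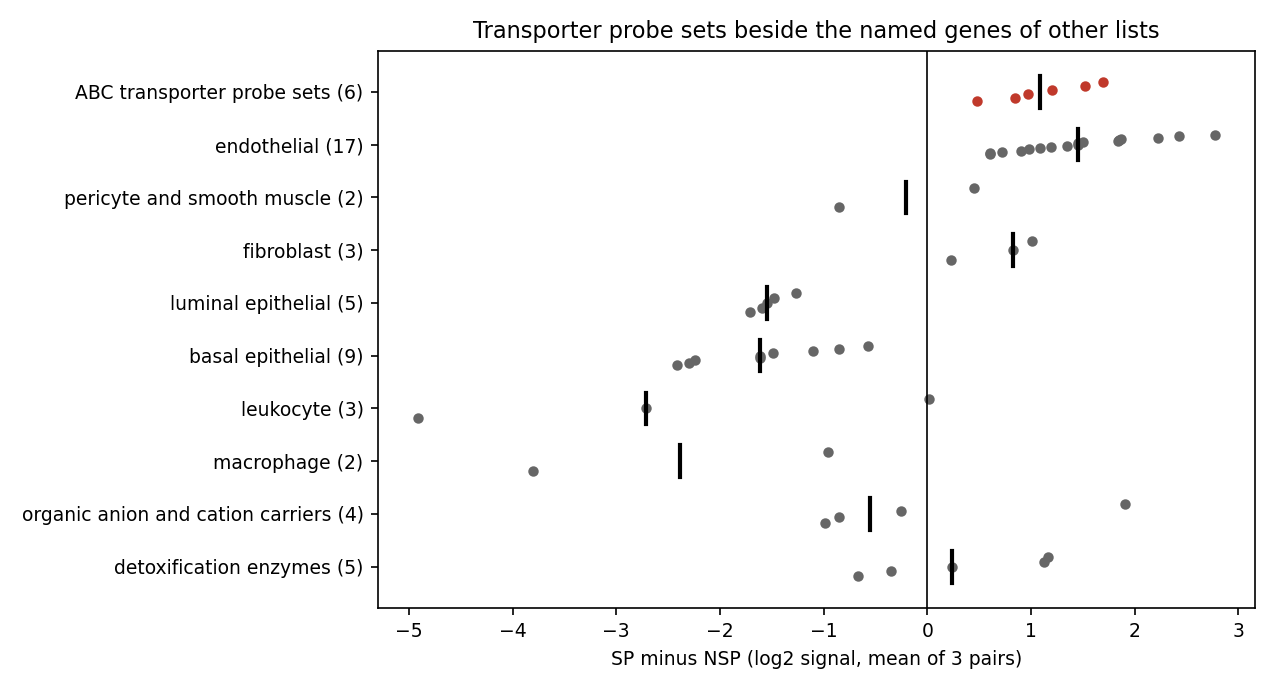
SP minus NSP log2 differences (horizontal axis, mean of 3 pairs) of the 6 transporter probe sets (red) and of the named genes of 9 other lists (grey, 1 point a gene, number of genes in brackets); black bars are medians. The transporters (median 1.09) spread over part of the range of the endothelial genes (median 1.45), with Abcg2 below it, on the other side of 0 from all luminal (median -1.55) and basal (median -1.61) genes.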

How the data were processed

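Signal intensity values were deposited by the authors for each of 45101 probe sets on 7 arrays, with MAS5 named in the submitters' processing notes and no version or scaling stated. The authors' deposited comparison table gives, for 1632 probe sets, dChip values on a log scale, present calls in percent, a paired test statistic as a score and an unadjusted paired p-value, per the file headers. The base of the logarithm is not stated. The authors' deposited dChip values were taken as log2: across 1009 bright listed probe sets the ratio of SDs, dChip over log2 signal differences, was 0.902, and it would be near 0.693 for natural logs. That of the levels was 0.912 to 0.953 on the 6 arrays. Against this, the fold sizes by which the authors named their lists match natural logs of the minimum differences (0.185, 0.4 and 0.7), so the base stays unproven. The dChip arrays were normalized to the reference array and 16744 probe sets kept, per the labels.

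Genes were named through the authors' list, by gene number or symbol, in a RefSeq table of GRCm38.p6 (1483 of 1632 probe sets with 1 symbol, 1311 genes). For lists, the probe set of highest mean signal stood for a gene. A floor of 17.0, the 20th percentile over the sorted arrays together, replaced lower signals and log2 was taken. The 38115 probe sets above it on at least 3 of 6 arrays, without 64 control probe sets, were fitted with limma 3.58.1 in R 4.3.3 (lmFit and eBayes, two-sided, Benjamini-Hochberg, threshold 0.05). Tested on simulated data, this fit made no calls, true or false, so a transporter that misses its threshold is not shown to be without a difference. The fit with the intensity trend and the block called 86 of 200 simulated differences and made 0 false calls. The simulated differences were larger than that of any transporter, and the simulated arrays had no pair effect. The simulation therefore does not vouch for the calls of that fit on these arrays. The sample number was a block because the authors compared the samples as pairs, per the file headers, and 2 of the 3 pairs share a day in the labels. Deviations from group means correlated at 0.039, 0.041 and 0.12 within pairs, against -0.064 to 0.021 between arrays of unlike number. For pairs 1 and 2 the margin was small, since SP replicate 1 stood at 0.021 with NSP replicate 2. SP replicate 2 stood at 0.01 with NSP replicate 1. The number of arrays limits the precision.

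Genes named by rule were all 6 transporter probe sets and, for a list, up to 4 members of smallest p. Some lists are given by sums or counts, and Ctnnb1 under 1 of its lists. The rule also named the 4 listed genes most correlated with each transporter over 7 arrays. Beyond the rule, all 6 haematopoietic stem cell genes that could be named were given. Adjustment was over all probe sets. Alternatives covered block, variance trend, normalization, floor, filter, dChip values and leaving out each array. The members and lists were chosen with earlier results of these data known.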

Additional observations from a re-analysis of the deposited data

How the results depend on the processing

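Against 0 probe sets past the threshold (3758 at an unadjusted p under 0.05), limma called 6 without the replicate block (1 higher and 5 lower in SP), 942 with the intensity trend and the block, 381 with the trend alone, and 41 among the 16744 probe sets of highest mean, where fewer were tested. Of the 6 transporter probe sets, 0 passed with the block and 0 without it, 6 with the trend and the block, 3 with the trend alone (both of Abcb1a, and Abcc4) and 1 among the 16744 (Abcb1a, 1419759_at). On the authors' deposited dChip values, given for selected probe sets, 6 passed with the block, as did all 1632 listed probe sets, and 6 without it, as did 825 of the 1632. The authors had selected these probe sets by a paired p on the same values, so these counts are no test of the transporters. The fit without the block was chosen after the data were seen. Quantile normalization, centring, other floors, an offset of 16, other filters on the floor and leaving out any array gave 0 of 6. On simulated data the fit with the block alone made no calls, so these counts of 0 say nothing about stability. With the block, leaving out an array removes its pair. The log2 differences then ranged from 0.42 to 0.56 for Abcg2, 1.502 to 1.91 (1419758_at) and 1.499 to 1.55 (1419759_at) for Abcb1a, 0.86 to 1.47 for Abcb1b, 0.69 to 1.14 for Abcc4 and 0.79 to 0.92 for Abcc9. Every alternative run left SP above NSP for all 6. Since every pair of each probe set was higher in SP, leaving out an array could not reverse the direction. The list, too, was chosen on this contrast, so the shared direction is a description and no test. Of 12 differences from the reference, 7 were past 1, and 6 to 8 under the alternatives; those of Abcc4 in SP cells (0.75 to 1.16) and of Abcb1a (1419759_at) in NSP cells (0.97 to 1.15) crossed 1. The cause of these moves was not tested. The floor bounds how far Abcc9 can stand above the reference.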

Other observations

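Enzymes of detoxification, which often work beside efflux pumps, moved both ways. Of 47 on the list 5 were named, 3 higher and 2 lower in SP cells, with a median of 0.24. Nqo1, a quinone reductase, had signals of 503, 869 and 466 in SP cells, against 227, 329 and 260 in NSP cells, a difference of 1.13 ± 0.19 (limma adjusted p = 0.387, and 0.00851 with the trend and the block). Gsta4, a glutathione transferase, differed by 1.17 ± 0.33 and was highest in the reference, at 3396, against 274, 768 and 1026 in SP and 198, 215 and 445 in NSP cells. Gsr, the glutathione reductase, differed by -0.67 ± 0.18 (limma adjusted p = 0.445, and 0.00584 with the trend and the block), and Gsto1 by 0.24 ± 0.17.

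Of 28 genes on a list of blood-brain barrier endothelium, where Abcb1a and Abcg2 are pumps of the capillary wall, 6 were named. Of these, 4 were higher in SP cells, with a median over the 6 of 0.27. Tspan12, a Norrin signalling tetraspanin, differed by 0.53 ± 0.23, Fzd4, its receptor partner, by 0.29 ± 0.18, and Mfsd2a, a lipid carrier of that barrier, by -0.40 ± 0.22. Plvap, a gene of leaky capillaries that the mature barrier lacks, differed by 1.45 ± 0.21 (limma adjusted p = 0.376, and 0.00100 with the trend and the block). The other lists that were read had few names. All 3 named Schwann cell genes were lower (median -0.89), the 1 named adipocyte gene, Fabp4, differed by 0.49 ± 0.17, and no erythroid gene was named. Of 6 named haematopoietic stem cell genes 5 were higher (median 0.56), and 1 of these, Cd34, is also on the endothelial list. The differences were 1.80 ± 0.20 for Mecom, 1.09 ± 0.16 for Cd34 and 0.56 ± 0.21 for Fgd5. For Procr, Gata2 and Runx1 they were 0.55 ± 0.16, 0.24 ± 0.27 and -0.67 ± 0.15.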
